A study of Mus musculus with 2 samples.

Results

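The plasma membrane carriers that bring sugars and amino acids into cells were examined in ureters of E18.5 mouse embryos that lack Pparg function in the epithelium. The members were all array genes whose name begins with Slc1a, Slc2a, Slc3a, Slc5a, Slc6a, Slc7a or Slc38a followed by a digit. This gave 83 of the 29923 genes on the array, measured by 106 probes: 7 genes of Slc1a, 13 of Slc2a, 2 of Slc3a, 13 of Slc5a, 21 of Slc6a, 16 of Slc7a and 11 of Slc38a. Of these names, 3 (Slc7a6os, Slc6a19os and Slc2a4rg-ps) belong to opposite strand genes and a pseudogene rather than to carriers, and they were kept because the rule includes them.

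Total RNA of pooled ureters was compared on 2 arrays with 2 dyes each. The Pparg-cKO pools carried Pax2-cre/+ and Pparg(fl/fl), and the control pools carried Pparg(fl/?), where the labels leave the other allele open; by the study's methods the controls were littermates without Cre. Both groups came from the NMRI strain at E18.5; replicate 1 held a female pool of each genotype and replicate 2 a male pool of each. Cre driven by Pax2 removes exons 2 and 3 of Pparg in epithelium that descends from the nephric duct, in the ureter and in the kidney's collecting ducts, so a pool of whole ureters holds recombined and unrecombined cells. The dyes were exchanged between the arrays, so that array, sex and dye orientation cannot be told apart. All ratios are Pparg-cKO over control in the direction of the deposited value table, which is also the direction used by the study. It is the likely one, since the study's tissue sections, which were made apart from the arrays, run the same way. The dye labels state the opposite direction on both arrays, and if they are right every "higher" and "lower" given here is exchanged while sizes and p-values stay.

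Sugars enter cells passively or together with sodium. The GLUT carriers (Slc2a) let sugars pass down their gradient, apart from a proton-coupled inositol carrier, and the sodium-coupled carriers (Slc5a) pull sugars, inositol or vitamins inward with sodium. Amino acids use several systems. Slc1a carriers take up glutamate or small neutral amino acids, Slc6a carriers couple neurotransmitters, osmolytes and amino acids to sodium and chloride, Slc38a carriers take up glutamine and alanine, and many Slc7a proteins are light chains that reach the membrane only when joined to a heavy chain of Slc3a. In an epithelium such as the urothelium these carriers feed the cells, and in kidney tubules they return filtered sugar and amino acids to the blood.

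The Pparg transcript itself was read at chromosome 6, 115440213-115440272 (mm9). Its processed signal, in the scanner's arbitrary units after background and dye correction, was 12360 in the Pparg-cKO and 6113 in the control female pool, and 12930 and 6688 in the male pools. The log2 ratio was 0.97 ± 0.02 (SD, n = 2 arrays; adjusted p = 0.0373, limma). A transcript without exons 2 and 3 would still carry the rest of its sequence, so unless the probe lies within those exons it does not check the genotype, and its exon was not analysed here. Markers of superficial urothelial cells were well above background in all pools for 6 of 6 genes and had a median log2 ratio of -1.26, with 4 of 6 past the 1.5-fold rule explained next. Of the 4 basal cell markers, Krt14 and Krt15 were past that rule with log2 ratios of 1.00 and 1.18, while Trp63 had -0.53 and -0.44 and Krt5 had -0.86 and 0.35 on the female and male arrays. In such bulk tissue, fewer cells of a type and less RNA per cell cannot be told apart.

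Slc6a14 was the transporter gene that rose in Pparg-cKO ureters. It encodes a carrier driven by sodium and chloride that accepts a broad range of neutral and cationic amino acids. Its processed signal was 111 in the female Pparg-cKO pool against 8.53 in the female control pool, and 129 in the male Pparg-cKO pool against 13.0 in the male control pool. Both Pparg-cKO pools lay far above both control pools, and the probe was well above background in all 4. The log2 ratios, 2.18 for the female and 2.25 for the male pools, averaged 2.21 ± 0.05 (SD, n = 2; limma SE 0.10), or 4.63-fold (adjusted p = 0.0062 over 22499 genes). These ratios carry an offset of 50 signal units that compresses dim genes; without the offset the mean was 2.85, and in the deposited table it was 3.63. By the main mean, 14 of the genes tested rose more than Slc6a14.

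Slc6a14 is measured by a single probe, which lies on the X chromosome at 21318999-21319058 (mm9). The first 30 of its 60 bases are shown to identify the probe, whose place in the transcript was not analysed.

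Slc6a14 probe: tctaaacatgttatcaatttattatgtatc

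The promoter of Slc6a14 is shown because this was the member that changed, and PPARG acts on promoters through direct repeats of a half-site. The window is that of RefSeq, on chrX:21714650-21714949 of GRCm38.p6, plus strand, from 250 bases before to 50 bases after the annotated start, whose base is in capitals.

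Slc6a14 promoter: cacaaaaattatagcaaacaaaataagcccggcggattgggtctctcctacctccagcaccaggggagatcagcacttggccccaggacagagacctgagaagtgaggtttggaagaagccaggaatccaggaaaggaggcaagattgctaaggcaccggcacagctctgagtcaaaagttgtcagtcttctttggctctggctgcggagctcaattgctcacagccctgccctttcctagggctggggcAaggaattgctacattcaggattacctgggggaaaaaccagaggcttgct

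On both strands, the direct repeat AGGTCANAGGTCA was not in this window, and it was in 13 of 32851 promoter windows of the same length (0.0396%) and in 0 of 83 windows, which belong to 61 of the transporter genes. Its half-site AGGTCA, which the direct repeat contains, was not in the Slc6a14 window either. The half-site was in 16.3% of all windows and in 13 of the 83 windows of transporter genes (15.7%). The letters TATAAA were not in the Slc6a14 window and were in 13.6% of all windows. The window held 52.7% G and C and 4 CG dinucleotides, and the median window held 52.7% and 7. These are letter matches only.

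Across the transporter genes, Slc6a14 was the single member past the fold rule, which asked for 1.5-fold or more, in the same direction, on each array and for a brighter channel whose processed signal reached 100 on each. Of the 33 transporter genes that reached that signal, 1 passed, against 1.84% of the 14015 genes that reached it. Slc6a14 reached it through its Pparg-cKO pools alone, where it is high, so its passing the signal filter is not separate from its rise. For rises alone that share was 0.792%, and for falls, where 0 transporter genes passed, it was 1.05%. The limma test called 1 of the 68 transporter genes tested at an adjusted p under 0.05, against 0.751% of all genes tested. A share of 1 gene among 33 or 68 is near these backgrounds, so the count does not set the transporters apart. At an unadjusted p under 0.05 there were 5 (Slc6a14, Slc2a2, Slc2a12, Slc5a1 and Slc7a9), against 8.51% of all genes; Slc2a2, Slc5a1 and Slc7a9 are named because of this count, after their values were seen. The call of Slc6a14 fell away in limma with the scanner's processed signals (adjusted p = 0.529) and with the deposited table (adjusted p = 0.533), settings in which limma called 0 genes of the whole array. It also fell away from the fold rule when the minimum signal was set at 200.

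**Figure D1:**
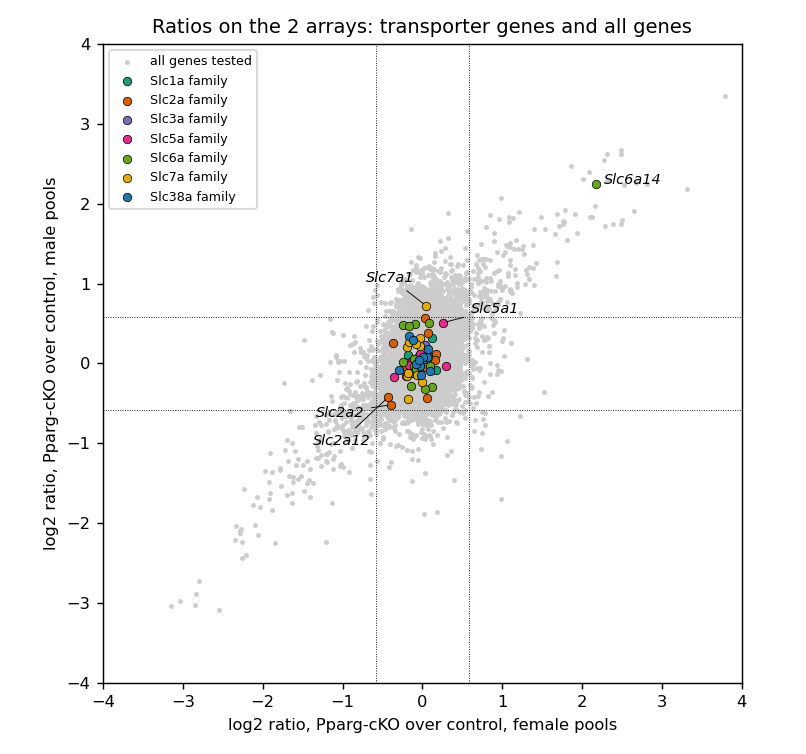
Log2 ratios of Pparg-cKO over control on the female array (horizontal) and on the male array (vertical); grey points are all genes tested, coloured points the transporter genes by Slc family, and dotted lines mark 1.5-fold. Slc6a14 stands at 2.18 and 2.25, and the other transporter genes lie within the central cloud.

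The other transporter genes with a signal of at least 100 moved little, while those below it are compressed by the offset. The median log2 ratio over the 68 transporter genes tested was 0.00, against 0.01 over all genes tested. Of the 32 transporter genes other than Slc6a14 with a signal of at least 100, 29 had a mean change under 1.2-fold, and the mean changes of all 32 lay within 1.34-fold. Among transporter genes at that signal 87.9% were under 1.2-fold, against 83.9% of all genes at that signal. The ratio had the same sign on both arrays for 55.9% of the transporter genes tested and for 52.8% of all genes tested. On levels scaled between arrays, both Pparg-cKO pools were above both control pools for 12 transporter genes (18.9% of all genes tested) and below them for 16 (18.0% of all genes tested).

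**Figure D2:**
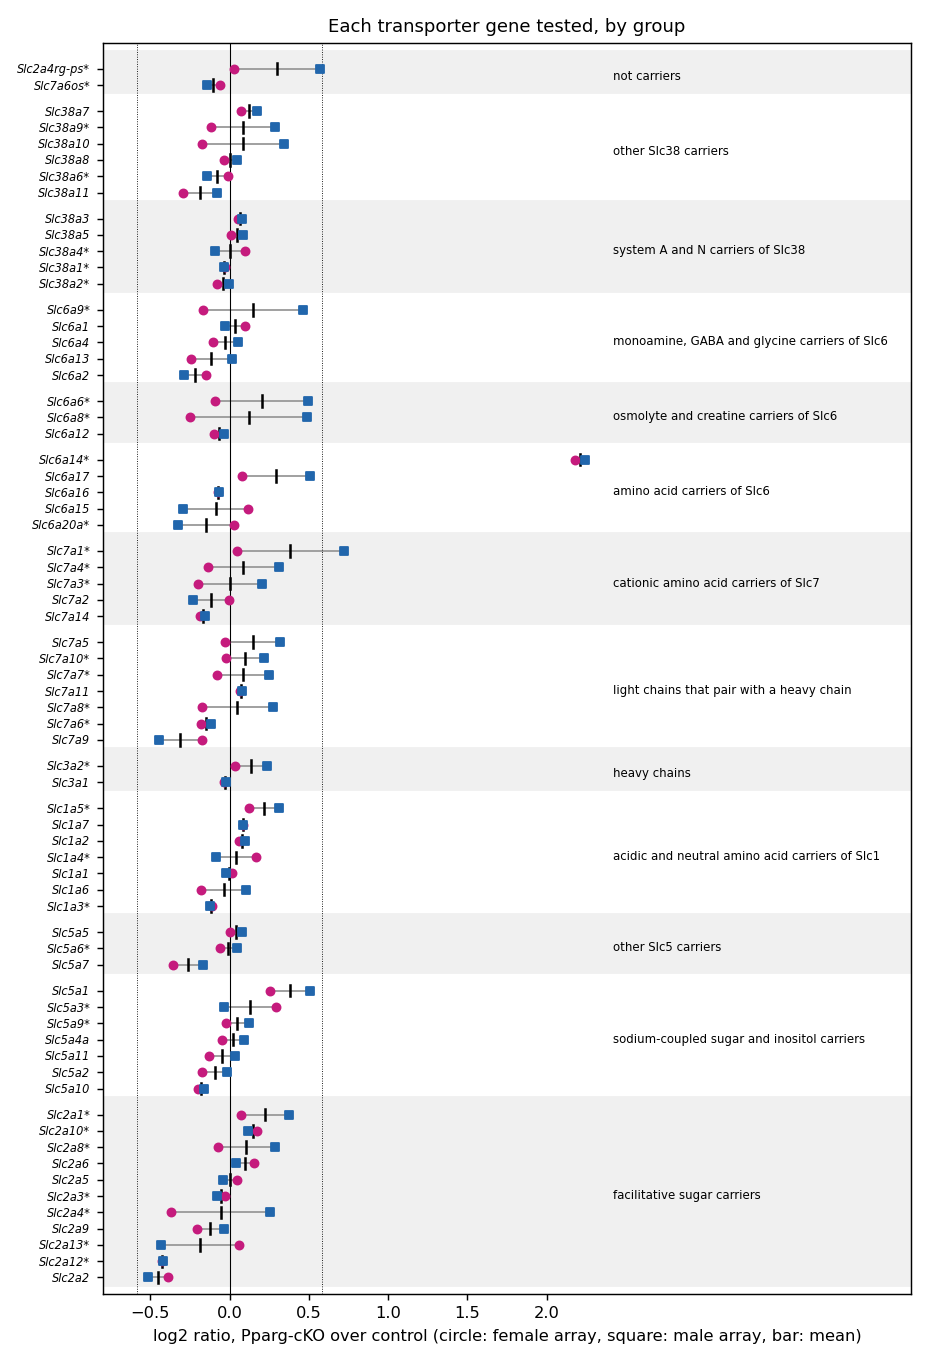
Log2 ratio of Pparg-cKO over control for each transporter gene tested, grouped by substrate; circles are the female array, squares the male array and bars their mean, dotted lines mark 1.5-fold, and a star marks a processed signal of at least 100. Slc6a14 is the single gene past 1.5-fold on both arrays, and several genes have a higher ratio on the male array.

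Among the facilitative sugar carriers, 0 of the 11 tested passed either test, and their median log2 ratio was -0.05. Slc2a1, the widespread carrier of basal glucose uptake, gave processed signals of 3581 in the Pparg-cKO and 3238 in the control female pool, and 3919 and 3266 in the male pools. Both Pparg-cKO pools were above both control pools, but the log2 ratio of 0.22 ± 0.22 (SD, n = 2) was about as large as the spread between the arrays (adjusted p = 0.725). Slc2a12, a glucose carrier of muscle and fat among other tissues, gave 106 and 148 in the female and 132 and 181 in the male Pparg-cKO and control pools. Its ratios were nearly the same on the arrays, -0.43 and -0.42, and each Pparg-cKO pool was below both control pools. The mean of -0.43 (SE 0.10) was not called (adjusted p = 0.29), and each array lay short of 1.5-fold. Slc2a4, the insulin-responsive carrier, was chosen for mention after its values were seen, because its ratios were -0.37 for the female and 0.26 for the male pools. Slc2a13, which carries myo-inositol with protons and was likewise chosen afterwards, had ratios of 0.06 and -0.43.

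Among the sodium-coupled sugar and inositol carriers, 0 of 7 tested passed either test, and the median was 0.02. Slc5a9, a carrier of mannose and glucose, gave 258 and 253 in the female and 341 and 327 in the male Pparg-cKO and control pools, and its log2 ratio was 0.05 ± 0.11 (SD, n = 2; adjusted p = 0.971). Slc5a1, the intestinal glucose and galactose carrier, was dim: 11.2 and 6.22 in the female and 18.4 and 7.21 in the male Pparg-cKO and control pools. Both Pparg-cKO pools were above both control pools, with a log2 ratio of 0.38 ± 0.18 (SD, n = 2; adjusted p = 0.441). The male control pool was not well above background. The mean was 0.68 without the offset, just short of the call (adjusted p = 0.052, limma). It was 1.10 with the scanner's processed signals and 1.16 in the deposited table, settings in which limma called 0 genes of the whole array. Of the carriers of other Slc5a substrates, Slc5a6, which takes up biotin and pantothenate, had a log2 ratio of -0.01 ± 0.08 (adjusted p = 0.995), and 0 of 3 tested passed.

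Slc5a3, the sodium-coupled carrier of the osmolyte myo-inositol, had 2 probes that disagreed. Both are on chromosome 16 (mm9), the first at 92087281-92087340 and the second at 92079366-92079425, and the first 30 bases of each are shown to tell the probes apart.

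Slc5a3 first probe: ggcttcagtttcaaagaaaatagaatttga

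Slc5a3 second probe: gaagagactccacaagttaaagtgatccta

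The first, brighter probe represents the gene and gave 561 and 451 in the female and 511 and 518 in the male Pparg-cKO and control pools, or log2 ratios of 0.29 and -0.04. The second probe gave 26.1 and 73.7, and 48.6 and 63.7, or -1.03 and -0.28. The direction for Slc5a3 therefore depends on the probe. Of the 19 transporter genes with several probes, Slc5a3 was the 1 whose probe means were more than 0.25 apart on the log2 scale.

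The acidic and neutral amino acid carriers of Slc1a were all measured, and 0 of 7 passed either test, with a median of 0.04. Slc1a5, the main glutamine carrier of growing cells, gave 1160 and 1069 in the female and 1344 and 1073 in the male Pparg-cKO and control pools. Its log2 ratio was 0.22 ± 0.13 (SD, n = 2; adjusted p = 0.7), and its second probe gave 0.25. Slc1a3, a glutamate carrier best known from glia, had a log2 ratio of -0.12 ± 0.01 (adjusted p = 0.855). Slc1a4, which exchanges alanine, serine and cysteine, had ratios of 0.17 and -0.09 (adjusted p = 0.98).

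Heavy chains and their light chains did not pass either test: 0 of 2 heavy chains and 0 of 7 light chains tested, with medians of 0.05 and 0.07. Slc3a2, the heavy chain used by most light chains, gave 1235 and 1169 in the female and 1427 and 1269 in the male Pparg-cKO and control pools, and its log2 ratio of 0.13 ± 0.14 (SD, n = 2) was about as large as its spread (adjusted p = 0.846). Slc7a6, a light chain for cationic and neutral amino acids, had a log2 ratio of -0.15 ± 0.04 (adjusted p = 0.793). Slc7a6os, the opposite strand gene that is no carrier, had -0.10 ± 0.06 (adjusted p = 0.893).

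Of the cationic amino acid carriers of Slc7a, 0 of 5 tested passed either test. Slc7a1, the widespread arginine and lysine carrier, gave 588 and 567 in the female pools of Pparg-cKO and control, and 1012 and 656 in the male pools. The high value was that of the male Pparg-cKO pool alone. The log2 ratios of 0.05 for the female and 0.72 for the male pools averaged 0.38 ± 0.48 (SD, n = 2; adjusted p = 0.673), so that the mean was smaller than the spread.

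**Figure D3:**
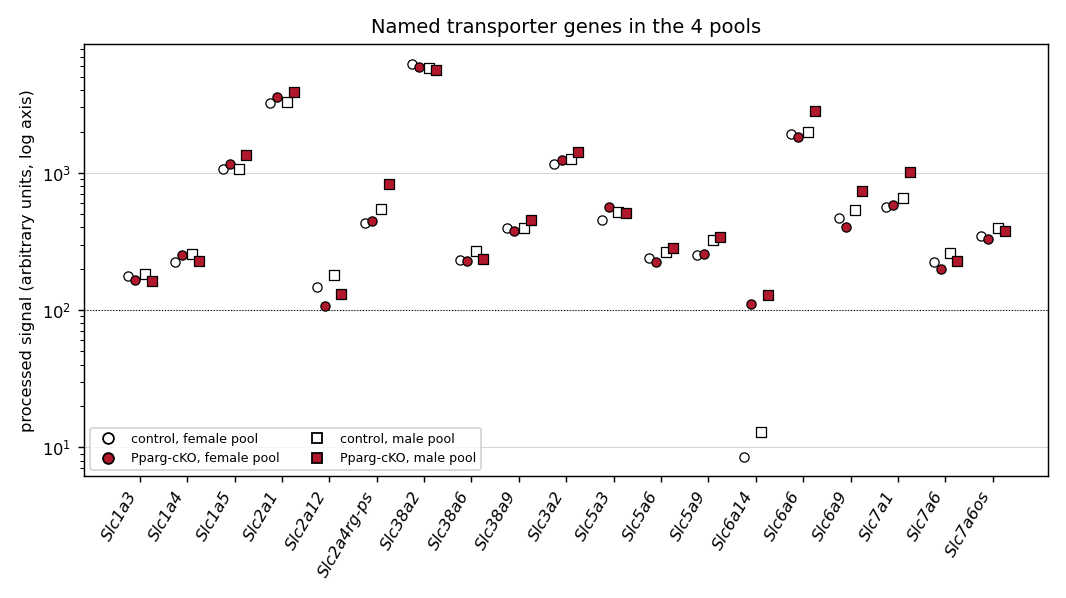
Processed signal (arbitrary units, log axis) of the 19 transporter genes named by the fixed rule in each of the 4 pools; open symbols are control and filled symbols Pparg-cKO pools, circles female and squares male, and the dotted line marks a signal of 100. Slc6a14 alone has both control pools, at 8.53 and 13.0, far below both Pparg-cKO pools, at 111 and 129.

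The osmolyte, creatine and glycine carriers of Slc6a had a higher ratio on the male array. Slc6a6, which takes up the osmolyte taurine, gave 1826 and 1932 in the female and 2817 and 2000 in the male Pparg-cKO and control pools, with log2 ratios of -0.09 and 0.50 (adjusted p = 0.84). Slc6a9, the glycine carrier, gave 401 and 469 in the female and 737 and 541 in the male pools, with -0.17 and 0.47 (adjusted p = 0.919). Slc6a8, the creatine carrier, chosen for mention after its values were seen, gave 984 and 1114, and 1435 and 1126, with -0.25 and 0.49. In all 3 the male Pparg-cKO pool was the highest of the 4 pools and the female Pparg-cKO pool the lowest. Over the 33 transporter genes with a signal of at least 100, the ratio was higher on the male than on the female array for 22 (66.7%), against 55.0% of all genes at that signal. Of these 33, 0 moved 1.2-fold or more in opposite directions on the arrays, against 1.73% of all genes. Of 7 markers of epithelium, 4 were higher on both arrays, 2 were lower on both (Krt18 and Cldn4) and 1 (Krt8) had opposite signs. Their ratio was higher on the male array for 7 of 7, with a median log2 ratio of 0.07 in the female and 0.52 in the male pools and summed signals of 40190 and 46890 in the female and 54340 and 40350 in the male Pparg-cKO and control pools; 7 of 7 were well above background in all pools. Their part in the ratios of these carriers was not tested.

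The probes of Slc6a9 give a check of the array readout, because their sequences overlap. They lie on chromosome 4 at 117541842-117541901 and 117541851-117541910 (mm9) and share 51 of 60 bases; the first 30 bases of each are shown, with the bases that stand in both printed stretches in capitals.

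Slc6a9 first probe: gcccagtgtGTGCAGAACTAGGGTTTTAAA

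Slc6a9 second probe: GTGCAGAACTAGGGTTTTAAAgtccgtagg

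The second probe gave log2 ratios of -0.32 and 0.62, and the mean of 0.15 was the same for both probes after rounding. Both probes therefore read opposite signs on the arrays. They share most of their sequence and do not count as separate measurements.

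The carriers of glutamine and small neutral amino acids in Slc38a were all measured and 0 of 11 passed either test, with a median of 0.01. Slc38a2, the system A carrier that cells use under amino acid shortage, gave 5957 and 6257 in the female and 5667 and 5828 in the male Pparg-cKO and control pools. The pools overlapped, and the log2 ratio was -0.04 ± 0.05 (SD, n = 2; adjusted p = 0.976). Slc38a9, which senses arginine at the lysosome, had log2 ratios of -0.12 and 0.29 (adjusted p = 0.947). Slc38a6 had -0.01 and -0.14 (adjusted p = 0.938). The pseudogene Slc2a4rg-ps, measured beside these families, had 0.03 and 0.57 (adjusted p = 0.72).

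Carriers best known from kidney tubules were mostly dim in these ureters: 15 of 18 had a signal under 100. This list was put together after the values were seen, so its counts describe these samples and were not tested. Without any filter on low values, 13 of the 18 were lower in the Pparg-cKO pools on both arrays (24.5% of all genes), 1 was higher on both and 4 had opposite signs. Of these 13, 5 were well above background in pools of both genotypes (Slc2a9, Slc3a1, Slc5a2, Slc5a10 and Slc7a9), 5 in control pools alone and 3 in no pool. In the direction used, the green dye read the female control and male Pparg-cKO pools. Green channels had more spots well above background (76.8% and 77.3%) than red ones (66.2% and 67.6%), so these counts mix dye with genotype. The 3 that reached a signal of 100, Slc6a20a, Slc7a7 and Slc7a8, had opposite signs on the arrays. Slc2a2, the glucose carrier of liver and tubule, gave 2.44 and 8.33 in the female and 2.47 and 9.91 in the male Pparg-cKO and control pools. It was not well above background in either Pparg-cKO pool, so its level there is a bound, and control was at least 1.27-fold higher. Its measured log2 ratio of -0.45 ± 0.09 (SD, n = 2) was not called (adjusted p = 0.277), and it entered the test through its control pools alone. Without the offset the ratio was -0.96 and was called (adjusted p = 0.00459), against Pparg-cKO levels that remain a bound. Slc7a9, the light chain for cystine, gave 3.50 and 6.32, and 2.59 and 8.75, with a log2 ratio of -0.31 ± 0.19 (adjusted p = 0.581) that was -0.70 without the offset (adjusted p = 0.069). Slc3a1, its heavy chain, had -0.03 ± 0.01 (adjusted p = 0.984). Slc5a1, given above, was the 1 that was higher on both arrays, and Slc1a1, a carrier of glutamate, had 0.02 and -0.02.

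**Figure D4:**
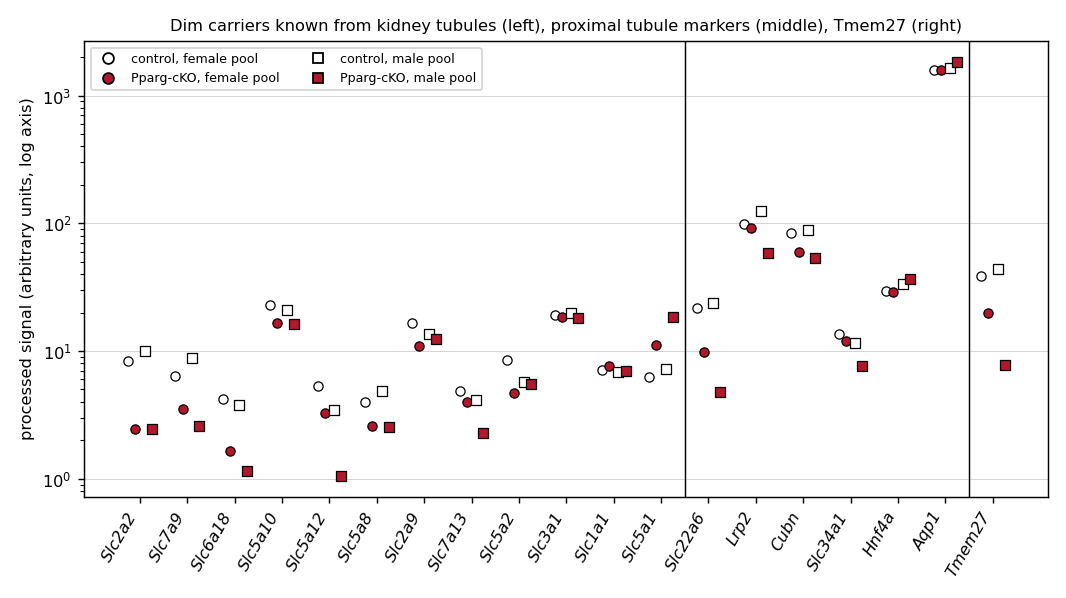
Processed signal (arbitrary units, log axis) in each of the 4 pools for the 12 carriers known from kidney tubules with a signal under 100 and a probe well above background in at least 1 pool, for the 6 fixed proximal tubule markers and for Tmem27; open symbols are control and filled symbols Pparg-cKO pools, circles female and squares male. Slc2a2, Slc7a9, Slc22a6 and Tmem27 are among those with both Pparg-cKO pools below both control pools. The pools overlap for Slc1a1, Slc34a1, Aqp1 and Hnf4a, and Slc5a1 has both Pparg-cKO pools above both control pools.

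Proximal tubule markers were measured beside these carriers. Of 6 markers, 4 were lower on both arrays, the median log2 ratio was -0.30, and 0 passed either test. Slc22a6, the tubule's organic anion carrier, gave 9.74 and 21.8 in the female and 4.81 and 24.0 in the male Pparg-cKO and control pools, with a log2 ratio of -0.71 (adjusted p = 0.186). Cubn, a receptor for filtered proteins, had -0.46 (adjusted p = 0.273). Summed over the 6 markers, the signal was 1779 and 1842 in the female and 1992 and 1920 in the male Pparg-cKO and control pools, a sum in which Aqp1, also made by endothelium, takes most. Markers of liver, where Slc2a2 is also made, had a median log2 ratio of -0.63, and 3 of 4 were lower on both arrays. Alb had -0.19 and -1.08 (adjusted p = 0.536), and Ttr had -2.55 and -3.09 and was called (adjusted p = 0.00728). Ttr is also counted by the study among the genes of superficial urothelial cells. Without it, the summed signal of the other 3 liver markers was 1038 and 1165 in the female and 1236 and 2741 in the male Pparg-cKO and control pools. The part of kidney or liver RNA in the values of the carriers was not tested.

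Genes that work with the carriers were counted from lists fixed with earlier results of these data known. Of 21 other sugar and amino acid carriers, 17 were tested and 0 passed either test, with a median log2 ratio of 0.06. Of the glycolysis genes, 17 were tested and 0 passed, with a median of 0.06. Of 15 genes of the amino acid response, 0 passed, with a median of 0.00. Of 11 trafficking partners and regulators, 1 passed both tests. Of all genes with a signal of at least 100, 1.84% passed the fold rule, and limma called 0.751% of all genes tested. A single gene of 11 does not set this list apart. The gene was Pdzk1ip1, a small membrane protein known to stimulate sodium-coupled glucose transport. It gave 10260 and 5184 in the female and 10940 and 5547 in the male Pparg-cKO and control pools, so the groups did not overlap, and its log2 ratio was 0.97 ± 0.03 (SD, n = 2; adjusted p = 0.0373). Tmem27, the partner that kidney carriers of Slc6a need at the membrane, gave 19.7 and 38.3, and 7.76 and 43.5, with a log2 ratio of -0.89 that was not called (adjusted p = 0.193) and is named here after its values were seen.

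Transporter genes not described singly are counted with their groups above. Of the 83, 54 were well above background in all 4 pools, and 15 were left out of the tests. Of those left out, 11 were not well above background in any pool: Slc2a7, Slc5a4b, Slc6a3, Slc6a5, Slc6a7, Slc6a11, Slc6a19, Slc6a19os, Slc6a20b, Slc7a12 and Slc7a15. The other 4 left out were Slc5a8, Slc5a12, Slc6a18 and Slc7a13. They were well above background in the female control pool alone, a pool read in the green dye.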

How the data were processed

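The authors deposited scanner output with linear intensity values for every spot (Agilent Feature Extraction 10.7.3.1). The authors also deposited a table of signed fold changes, a score in which a fall carries a minus sign. The mean signal and median background were corrected with normexp (offset 50) and normalised by loess in limma 3.58.1 under R 4.3.3. Control spots had no weight, outlier-flagged spots (2.87% and 3.24%) were dropped, and spots of a probe were averaged. The brightest probe stood for a gene. limma fitted the mean log2 ratio of the 22499 genes with a channel well above background on each array, two-sided, Benjamini-Hochberg adjusted, with 1 residual degree of freedom per gene. limma drew the spread of each gene toward that of all genes, with 4.00 prior degrees of freedom. The p-values therefore rest mostly on this shared spread between arrays of pools, part of which may be technical, and little on a gene's own spread. The 2 arrays limit the precision.

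Spots well above background made up 66.2% and 67.6% of the red channels and 76.8% and 77.3% of the green channels. 79 of the 83 genes matched a RefSeq transcript of GRCm38.p6. Named members were those past either test and, in each Slc family, the brightest and up to 3 with the largest mean change at a signal of at least 100. Members and lists were chosen with earlier results of these data known. Alternatives covered background correction, normalisation, probe choice, filters, thresholds, single arrays and direction.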

Additional observations from a re-analysis of the deposited data

How the results depend on the processing

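The count of transporter genes past the fold rule stayed at 1 under every alternative tried except these: it was 0 with a minimum signal of 200, and it ranged from 1 to 2 when either array was left out, with Slc7a1 added on the male array alone. The limma count of 1 became 2 with normexp without an offset (Slc2a2 added, whose level in Pparg-cKO pools is only a bound), and 0 with the scanner's processed signals and with the deposited table. Those 2 settings called 0 genes of all, with 2123 and 2101 at an unadjusted p under 0.05, and the cause was not tested. limma could not be run on a single array. The median log2 ratio of the transporter genes ranged from -0.04 to 0.05 with either array left out.

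Turned by the dye labels as written, every log2 ratio changes sign, so that Slc6a14 reads -2.21 with the same adjusted p. Signs near 0 also turned for Slc1a4 (-0.0017 in the deposited table), Slc38a6 (0.025 with median centring) and Slc5a6 (0.095 with median centring, 0.00034 in the deposited table). Slc5a3 turned to -0.26 with the median over its probes. In the fit on separate channels with no replicate block, Slc6a14 kept an adjusted p of 0.00593. Of the comparisons of a named gene with an alternative, with the single arrays and the turn by the dye labels left out of this tally, 168 kept sign and side of the threshold, 5 changed sign and are given above, 2 lost the call (Slc6a14 with the scanner's processed signals and the deposited table) and 1 gained it (Slc2a2 without the offset). In the 2 settings that lost the call, the log2 ratio of Slc6a14 was larger, 3.51 and 3.63 against 2.21. On 1 of the 2 arrays alone the sign was opposite to the mean for Slc1a4, Slc38a9, Slc5a3, Slc5a6, Slc5a9, Slc6a6 and Slc6a9. Dim genes are limited by signal over background.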
